A study of Mus musculus with 2 samples.

Results

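The genes that hold epithelial cells together and give them an apical and a basal side were compared between ureters with a conditional deletion in Fgfr2 and control ureters. The set holds 38 genes named by symbol: 3 of surface adhesion, 8 claudins, 9 other tight junction genes, 5 of polarity and polarised membrane traffic, 9 of desmosomes and their plaques, and 4 surface proteases and protease inhibitors. Its members were chosen by name and function, not by a measured value of this comparison, although results of the same data were known when they were chosen. All 38 symbols were found on the array, on 50 probes, and 36 genes gave a signal bright enough to test among 20923 tested genes. Jup and Pkp1 did not.

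The mutant pools carried Pax2-cre/+;Fgfr1(fl/?);Fgfr2(fl/fl) and the control pools Fgfr1(fl/?);Fgfr2(fl/?) without a listed cre allele, where the question mark stands for a wild-type or a floxed allele. Every pool therefore carried floxed Fgfr1 and Fgfr2 alleles, and the mutant pool joined ureters of different Fgfr1 genotypes, per the labels. Pax2-cre is active in the nephric duct lineage, from which the ureter epithelium comes, among other Pax2-expressing cells. All pools were of NMRI strain at E13.5 (embryonic day), and each whole ureter pool holds mesenchyme as well as epithelium. Female pools were compared on array 1, with mutant RNA in Cy5 and control RNA in Cy3, and male pools on array 2 with the dyes exchanged, so that dye and sex cannot be told apart. Each group thus has 1 pool per array and 2 in all, and the number of embryos per pool is not stated. The p-values rest on the spread between these 2 arrays, which limma pools for each gene with that of all tested genes. They do not measure the spread between embryos.

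Tight junctions seal the space between neighbouring epithelial cells through claudins, occludin and tricellulin, which are tied to the actin cytoskeleton by scaffold proteins such as the zonula occludens and cingulin families. Desmosomes anchor keratin filaments at cell borders, and the Crumbs, Par and Lgl proteins set apart the apical and basolateral membranes. The matriptase and prostasin proteases act on the surface of the same cells, where they are restrained by the Kunitz inhibitors encoded by Spint1 and Spint2.

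Of the 36 tested genes, 21 (58.3%) were lower in the mutant on both arrays, 1 (2.78%) was higher on both, and 14 had ratios of opposite sign. Over all tested genes 21.4% were lower on both arrays and 22.1% were higher on both. The median log2 ratio of mutant over control was -0.17 over the 36 genes and 0.0044 over all tested genes. It was -0.15 on array 1 and -0.23 on array 2, and on each array alone 28 of the 36 ratios were below 0. No gene of the set passed an adjusted p of 0.05 in limma, where the lowest adjusted p was 0.94 for Spint2, against 0.0287% of all tested genes that did. At an unadjusted p under 0.05, 4 genes were counted, all lower in the mutant (Spint2, Cldn4, Prss8 and Cldn3), against 4.04% of all tested genes. None was 1.5-fold lower on both arrays (0.0956% of all tested genes) and none was 1.5-fold higher on both (0.296%). Under other processings 1 gene was 1.5-fold lower on both. This was Pard6b in the authors' deposited table (0.32% of all tested genes) and with the scanner software's processed signals (0.358%). With median centring it was Spint2 (0.177%). The values below therefore describe small differences, none of which passed the adjusted test.

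**Figure D1:**
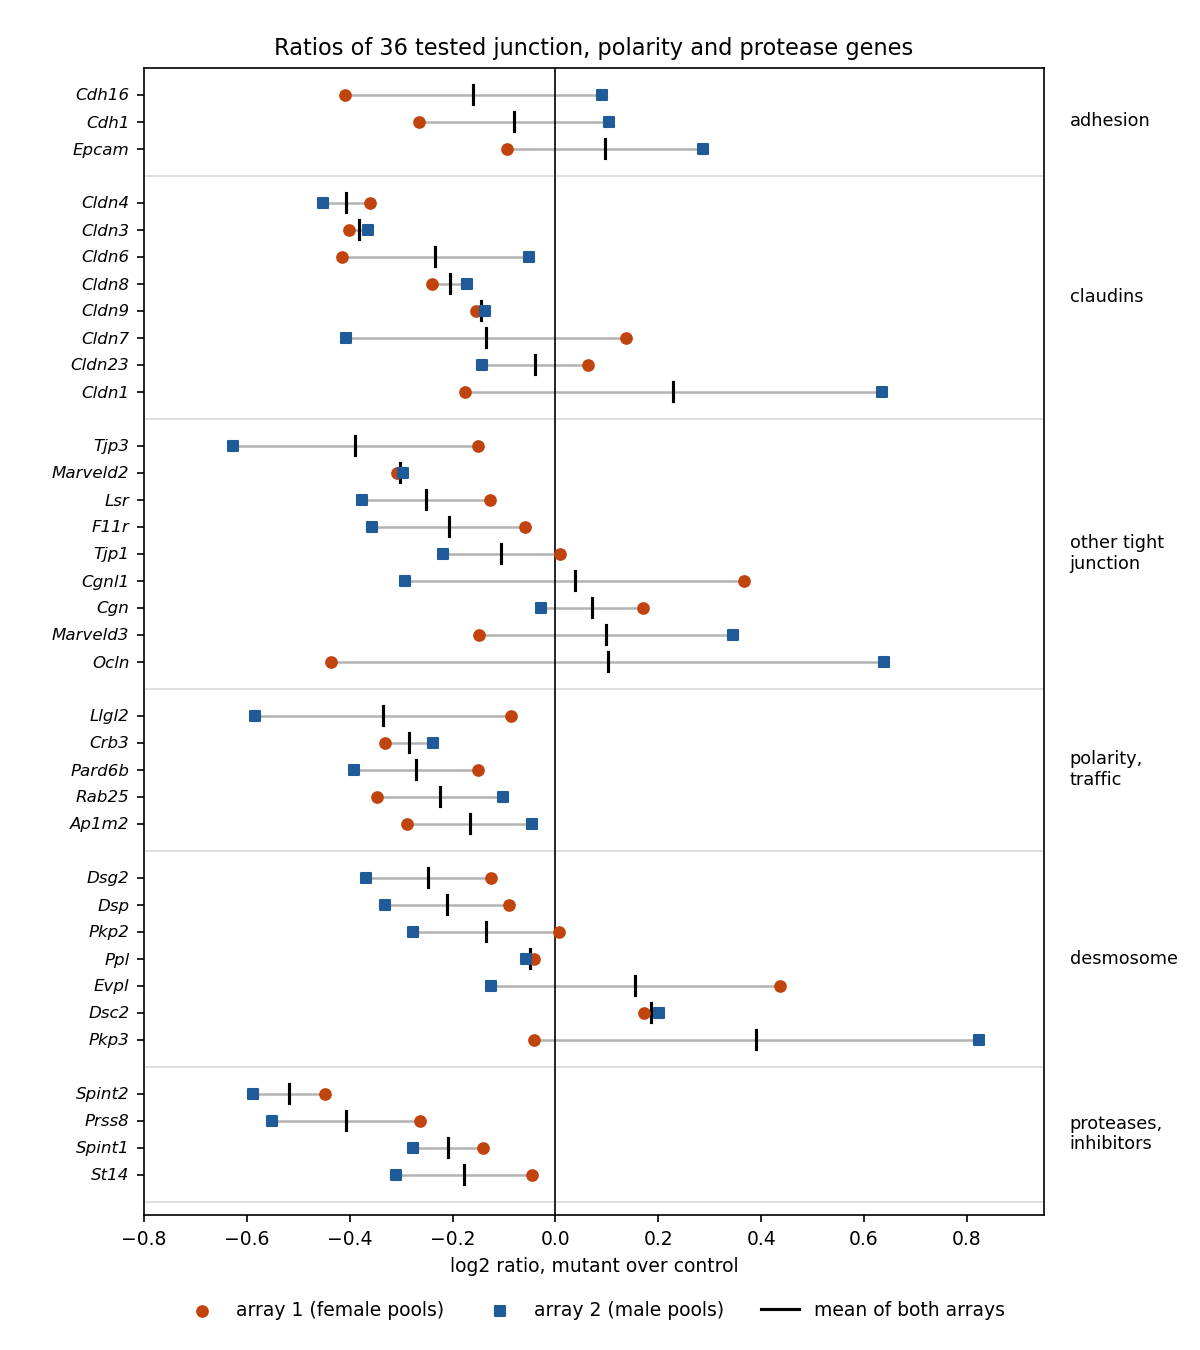
Log2 ratio of mutant over control of each of the 36 tested genes, by role, with array 1 (female pools) as circles, array 2 (male pools) as squares and the mean of both as a bar. All 5 polarity and traffic genes and all 4 protease and inhibitor genes lie below 0 on both arrays, while the adhesion genes Cdh1, Cdh16 and Epcam lie below 0 on array 1 and above 0 on array 2.

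The order of the genes by ratio differed between the arrays. Pearson's r between array 1 and array 2 was -0.0052 and Spearman's rho 0.033 across the 36 genes, and across all tested genes they were -0.024 and -0.13. The points share the same 2 arrays and 4 RNA pools. The SD between the arrays had a median of 0.17 over the set and 0.16 over all tested genes, and it was smaller than the mean ratio in 17 of the 36 genes. The spots of one probe on one array had a median SD of 0.10.

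**Figure D2:**
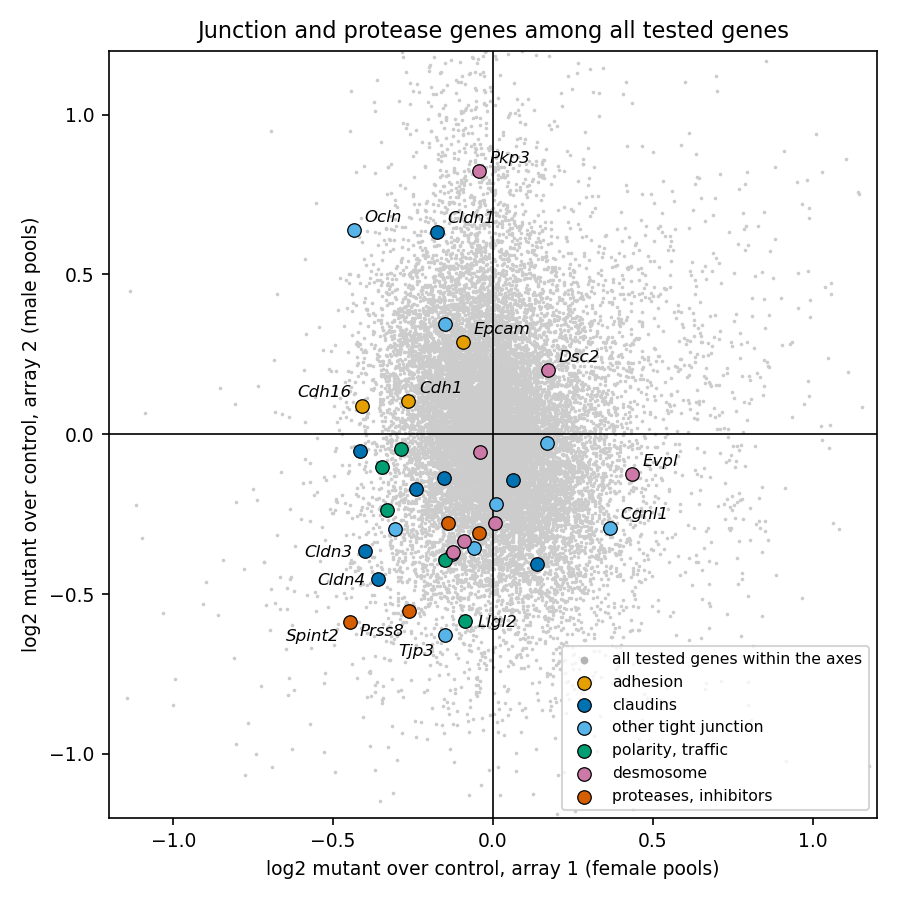
Log2 ratio of mutant over control on array 1 (horizontal) against array 2 (vertical), with all tested genes within the axes in grey and the 36 genes of the set coloured by role. The lower left quadrant holds 21 of the 36 genes, Dsc2 alone lies in the upper right, and the remaining 14 lie in the quadrants of opposite sign.

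The bases upstream of these genes were examined because genes of epithelial junctions are known to be repressed by Snail and Zeb proteins, which bind the E-box CACCTG, and to be activated by grainyhead-like factors, which bind AACCGGTT. RefSeq promoter windows (GRCm38.p6, 250 bases before to 50 after the annotated start) matched 22 of the 38 genes by symbol, with 27 windows. The first 6 sequences below belong to genes with lower ratios on both arrays, from 3 roles, and the last belongs to Epcam, whose ratios differed in sign. Each runs 5′ to 3′ along the gene and ends at the base before the annotated start. Capitals mark CACCTG or its reverse complement CAGGTG.
Spint2: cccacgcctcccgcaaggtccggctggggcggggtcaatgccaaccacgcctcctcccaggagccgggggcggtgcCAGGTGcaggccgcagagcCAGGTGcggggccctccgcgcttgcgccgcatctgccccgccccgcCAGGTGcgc
Cldn4: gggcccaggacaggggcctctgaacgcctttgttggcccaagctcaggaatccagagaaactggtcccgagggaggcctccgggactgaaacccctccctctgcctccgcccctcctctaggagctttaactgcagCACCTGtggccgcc
Crb3: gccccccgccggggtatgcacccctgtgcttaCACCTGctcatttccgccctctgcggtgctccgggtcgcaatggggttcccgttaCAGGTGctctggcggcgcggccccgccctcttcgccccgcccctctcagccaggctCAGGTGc
Pard6b: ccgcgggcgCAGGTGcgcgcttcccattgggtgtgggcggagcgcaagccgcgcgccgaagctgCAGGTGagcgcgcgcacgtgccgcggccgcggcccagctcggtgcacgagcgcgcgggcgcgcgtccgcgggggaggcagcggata
Ap1m2: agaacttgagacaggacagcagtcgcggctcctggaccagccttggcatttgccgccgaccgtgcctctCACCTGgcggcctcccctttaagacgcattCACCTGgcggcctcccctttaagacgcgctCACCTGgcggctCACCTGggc
Rab25: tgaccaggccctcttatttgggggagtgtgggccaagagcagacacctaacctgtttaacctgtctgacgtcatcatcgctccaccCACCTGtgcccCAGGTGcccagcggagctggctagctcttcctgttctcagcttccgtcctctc
Epcam: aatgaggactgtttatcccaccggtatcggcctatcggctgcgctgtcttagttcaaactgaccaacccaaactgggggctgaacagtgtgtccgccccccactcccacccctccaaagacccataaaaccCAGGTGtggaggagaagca
These stretches lie in GRCm38.p6 as follows: Spint2 at chr7:29281978-29282127 on the minus strand, Cldn4 at chr5:134946935-134947084 on the minus strand, Crb3 at chr17:57062051-57062200 on the plus strand, Pard6b at chr2:168080854-168081003 on the plus strand, Ap1m2 at chr9:21312334-21312483 on the minus strand, Rab25 at chr3:88548280-88548429 on the minus strand, and Epcam at chr17:87635829-87635978 on the plus strand. In Spint2 the matches began at positions -74, -55 and -9 from the start, all 3 in the reverse orientation. In Ap1m2 they began at -81, -51, -21 and -9, all in the forward orientation. In Rab25 they began at -64 and -53, and in Cldn4 one began at -14.

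CACCTG, read on both strands, was present in the window of 16 of the 22 genes (72.7%), against 22.6% of 27025 genes with a window. The windows of the set were richer in G and C, with a median of 62.3% against 52.7% over all windows. The same letters in reverse order, GTCCAC, searched after the first count was known, were present in 2 of the 22 genes (9.09%), against 12.3% of all. The grainyhead sequence AACCGGTT was in none of the 22 windows and in 0.174% of all genes. The 6 genes without CACCTG were Cldn1, Tjp1, Cgn, Cgnl1, Jup and Spint1. In a division made after the values were seen, 13 of the 16 genes with CACCTG and 1 of the 5 tested genes without it were lower in the mutant on both arrays. Over all tested genes with a window these shares were 24% of 2893 with CACCTG and 21.2% of 10280 without, with median log2 ratios of -0.0081 and 0.0025. Genes of the set without a window, such as Cdh1 and Prss8, are not part of this division. The group of 5 is small, and Tjp1, counted there as not lower on both arrays, was at 0.0084 on array 1. A match is a match of letters only, and binding was not measured. Whether CACCTG has a part in the ratios was not tested. Of the factors known to bind CACCTG, named after their values were seen, Zeb1 had log2 ratios of 0.084 and 0.26, Zeb2 of -0.15 and 0.29, Snai1 of -0.20 and -0.21, and Snai2 of 0.060 and -0.013 on arrays 1 and 2, and none passed the adjusted test.

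All 4 surface protease and inhibitor genes were lower in the mutant on both arrays, with a median log2 ratio of -0.31. Spint2, which encodes a Kunitz-type inhibitor of serine proteases, had the lowest mean ratio of the set under the processing used here, though not with the processed signals or in the authors' deposited table, where Pard6b was lower, nor with the mean of all probes. Its normalised log2 intensity on array 1 was 11.19 in the mutant and 11.63 in the control pool. On array 2 it was 11.16 and 11.75. Both mutant pools lay below both control pools. The share of all tested genes that separate in this way was not counted. Genes for which this is not stated below also separated, among them Tjp3, Cldn8, Cldn9, Llgl2, Lsr, F11r, Dsp, St14, Rab25 and Ap1m2. Dsc2 did so in the other direction. The separation therefore does not set apart the genes for which it is stated. The log2 ratio of Spint2 was -0.52 ± 0.098 (SD, n = 2), a 1.43-fold lower signal, and 0.492% of all tested genes had a lower mean ratio. Its 95% confidence interval, not adjusted for the number of genes tested or for choosing the lowest of the set, ran from -0.87 to -0.17. The interval rests on limma's moderated standard error of 0.149 and not on the SD of 0.098. This probe lies at chr7:30041332-30041381 (mm9, per the file headers), and a dimmer Spint2 probe gave 0.040 on array 1 and -0.26 on array 2. With the mean of both probes the Spint2 ratio was -0.32.

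Prss8, which encodes the membrane-anchored protease prostasin, had intensities of 9.73 in the mutant and 9.997 in the control pool on array 1, and of 9.40 and 9.95 on array 2. Both mutant pools again lay below both control pools. Its log2 ratio was -0.41 ± 0.20 (SD, n = 2), 1.33-fold lower, and a second Prss8 probe gave -0.17 and -0.40. Spint1, which encodes the related inhibitor of matriptase and of hepsin, had ratios of -0.14 and -0.28, and its second probe gave -0.10 and -0.28. St14, the gene of matriptase itself, had ratios of -0.045 and -0.31. Summed over the brightest probes of the 4 genes, the mutant signal was 83.9% of the control signal on array 1 and 73.6% on array 2.

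**Figure D3:**
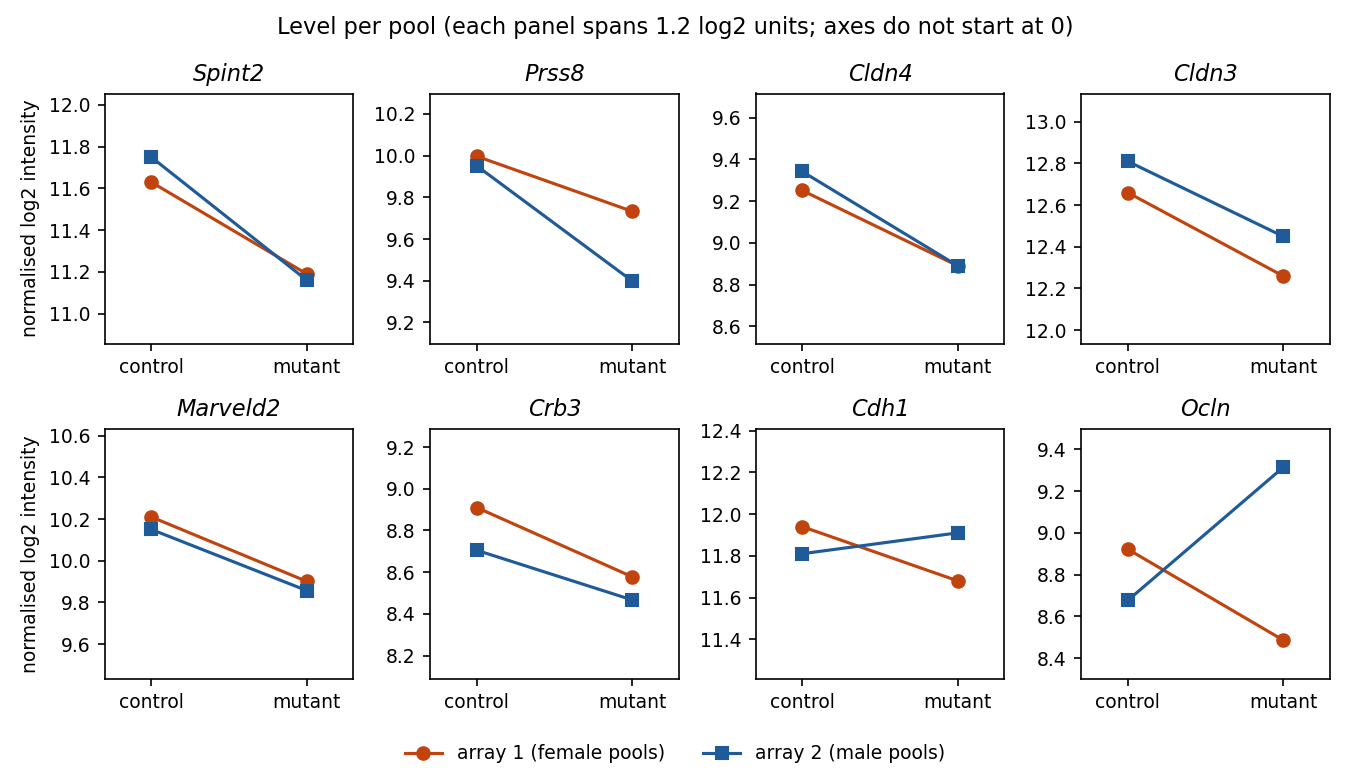
Normalised log2 intensity of 8 genes in the control and mutant pools, with array 1 (female pools) as circles and array 2 (male pools) as squares. The lines slope down from control to mutant on both arrays in Spint2, Prss8, Cldn4, Cldn3, Marveld2 and Crb3, and run in opposite directions in Cdh1 and Ocln.

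All 5 polarity and polarised traffic genes were lower in the mutant on both arrays, with a median of -0.27. Crb3, a transmembrane Crumbs protein of the apical membrane, had intensities of 8.58 in the mutant and 8.91 in the control on array 1, and of 8.47 and 8.71 on array 2. Both mutant pools were below both control pools, and the ratio was -0.28 ± 0.067 (SD, n = 2). The dimmer Crb3 probe gave -0.26 and 0.054. Pard6b, an adaptor of the Par polarity complex, had ratios of -0.15 and -0.39 at a low level of 6.37 to 6.92. The size of the Pard6b ratio depended on the processing, with a mean of -0.27 here, -0.41 at a normexp offset of 16, -0.91 in the authors' deposited table and -0.95 with the processed signals (-0.61 and -1.29). Its lowest adjusted p in limma over these processings was 0.56. Llgl2, a basolateral polarity protein of the Lgl family, had ratios of -0.087 and -0.58 with its brightest probe and of -0.48 and -0.35 with its second. The SD between the arrays exceeded the mean ratio of the brightest Llgl2 probe. Rab25, a small GTPase of recycling endosomes in epithelial cells, had ratios of -0.35 and -0.10. Ap1m2, the epithelial medium subunit of the clathrin adaptor that sorts proteins to the basolateral membrane, had ratios of -0.29 and -0.046.

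Among the 8 claudins, 5 were lower in the mutant on both arrays, none was higher on both, and the median was -0.18. Claudins are the membrane proteins that set which ions and solutes a tight junction lets pass. Cldn4 had intensities of 8.89 in the mutant and 9.25 in the control on array 1, and of 8.89 and 9.34 on array 2. Its log2 ratio was -0.41 ± 0.065 (SD, n = 2), 1.33-fold lower, and both mutant pools lay below both control pools. A dimmer Cldn4 probe gave 0.15 and -0.29, and the mean of both probes was -0.24. Cldn3 had intensities of 12.26 in the mutant and 12.66 in the control on array 1, and of 12.45 and 12.81 on array 2. Its ratio was -0.38 ± 0.026 (SD, n = 2), 1.303-fold lower, with no overlap between the groups. The probes of Cldn3 (chr5:135463284-135463342) and Cldn4 (chr5:135421347-135421406) lie 41.9 kb apart in mm9.

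The other claudins had smaller or less even ratios. Cldn6, a claudin of embryonic epithelia, had ratios of -0.42 and -0.052, and Cldn9, whose probe lies 1.14 kb from it on chromosome 17, had -0.15 and -0.14. The SD of Cldn6 was larger than its mean ratio and that of Cldn9 was far smaller, at 0.012. Cldn8, known from the collecting duct, had ratios of -0.24 and -0.17. Cldn7 had ratios of 0.14 and -0.41. Those of Cldn23 were 0.064 and -0.14, and those of Cldn1 were -0.18 and 0.63. The difference between the arrays thus exceeded the mean ratio in each of these last 3 claudins.

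Of the 9 other tight junction genes, 4 were lower in the mutant on both arrays and 5 had opposite signs, with a median of -0.11. Marveld2, which encodes tricellulin, the protein of the corners where cells meet, had intensities of 9.90 in the mutant and 10.21 in the control on array 1, and of 9.86 and 10.15 on array 2. The ratios of -0.31 and -0.30 gave the smallest SD of the set, 0.0084, and both mutant pools lay below both control pools. Lsr, which encodes angulin-1 and recruits tricellulin to those corners, had ratios of -0.13 and -0.38. Tjp3, which encodes the scaffold protein ZO-3, had -0.15 and -0.63, and F11r, the junctional adhesion molecule A, had -0.060 and -0.36. These 3 genes were all lower by more on array 2.

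The other 5 genes of this group went in opposite directions on the arrays. Ocln, which encodes occludin, had intensities of 8.49 in the mutant and 8.92 in the control on array 1, and of 9.31 and 8.68 on array 2. The mutant pool was thus the lower one in the female comparison and the higher one in the male comparison, and the SD of 0.76 was the largest of the set. The second Ocln probe gave -0.30 and -0.013. Marveld3, another MARVEL-domain protein of tight junctions, had -0.15 and 0.34, and its second probe gave -0.066 and 0.017. Tjp1, which encodes ZO-1, had 0.0084 and -0.22. Cgn (cingulin) had 0.17 and -0.027, and Cgnl1 (paracingulin) had 0.37 and -0.29.

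The 3 surface adhesion genes differed from the protease and polarity genes in that each had a negative ratio on array 1 and a positive one on array 2. Cdh1, which encodes E-cadherin, the adhesion molecule of epithelial adherens junctions, had intensities of 11.68 in the mutant and 11.94 in the control on array 1, and of 11.91 and 11.81 on array 2. The groups overlapped, and the ratio was -0.080 ± 0.26 (SD, n = 2). Cdh16, the kidney-specific cadherin of the nephric duct lineage, had ratios of -0.41 and 0.090. Epcam, a surface glycoprotein of epithelia, had ratios of -0.095 and 0.29. The difference between these genes and the other roles was not tested.

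Of the 7 tested desmosome and plaque genes, 3 were lower on both arrays, 1 was higher on both and 3 had opposite signs, with a median of -0.049. Dsc2, the desmosomal cadherin desmocollin-2, was the only tested gene of the 36 that was higher in the mutant on both arrays, at 0.17 and 0.20. Its intensities were 9.84 in the mutant and 9.67 in the control on array 1, and 9.79 and 9.59 on array 2. Dsg2, desmoglein-2, the cadherin with which desmocollin-2 pairs in simple epithelia, had ratios of -0.13 and -0.37, and its second tested probe gave -0.12 and -0.25. The Dsg2 mean of -0.25 was -0.46 in the authors' deposited table and -0.47 with the processed signals. The 2 desmosomal cadherins thus had ratios of opposite sign on both arrays, neither of which passed the adjusted test. Dsp, desmoplakin, the link to keratin filaments, had -0.089 and -0.33. Pkp2, a plakophilin of the desmosomal plaque, had 0.0063 and -0.28. The plakin genes Ppl (periplakin) and Evpl (envoplakin), whose proteins pair with each other, differed, with -0.041 and -0.057 for Ppl and 0.44 and -0.12 for Evpl. Pkp3, plakophilin-3, had the highest mean ratio of the set under this processing, 0.39, which came from array 2 alone, with -0.042 on array 1 and 0.82 on array 2. The Jup probe (plakoglobin), not tested, gave -0.0051 and -0.21 at a level of 6.27 to 6.50, and the Pkp1 probe was not well above background in either group on either array.

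Among 9 genes with more than 1 tested probe, the mean ratios of the probes were all lower in the mutant in 7, namely Cldn4, Crb3, Dsg2, Llgl2, Prss8, Spint1 and Spint2. They differed in sign in Marveld3 and Ocln, the genes whose brightest probes also differed in sign between the arrays.

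Further junction, polarity and protease genes outside the set were read in the same way. Of 58 such genes 45 were tested, of which 16 (35.6%) were lower on both arrays and 5 (11.1%) higher on both. Over all tested genes these shares were 21.4% and 22.1%. The median of the 45 genes was -0.067, and none passed the adjusted test. Cdh3, P-cadherin, had ratios of -0.28 and -0.62, and Cxadr, a junctional virus receptor, had -0.44 and -0.26. Cldn5, the claudin of blood vessel endothelium, had 0.62 and 0.54. Of 20 epithelial transcription and splicing regulators, 13 (65%) were lower on both arrays and 1 (5%) was higher on both. Their median was -0.25, and none passed the adjusted test. Elf5, an ETS factor, had -0.63 and -0.60, Tfcp2l1, a factor of collecting duct cells, had -0.37 and -0.69, and Ehf, another ETS factor, had -0.12 and -1.03. The grainyhead-like genes did not go the same way, with 0.65 and 0.41 for Grhl3, and, named after their values were seen, -0.62 and -0.35 for Grhl2 and -0.022 and -0.19 for Grhl1. At an unadjusted p under 0.05 in limma, 6 of the 20 regulators were lower and 1 was higher. Over all 20923 tested genes, 299 were lower and 546 were higher at that level.

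**Figure D4:**
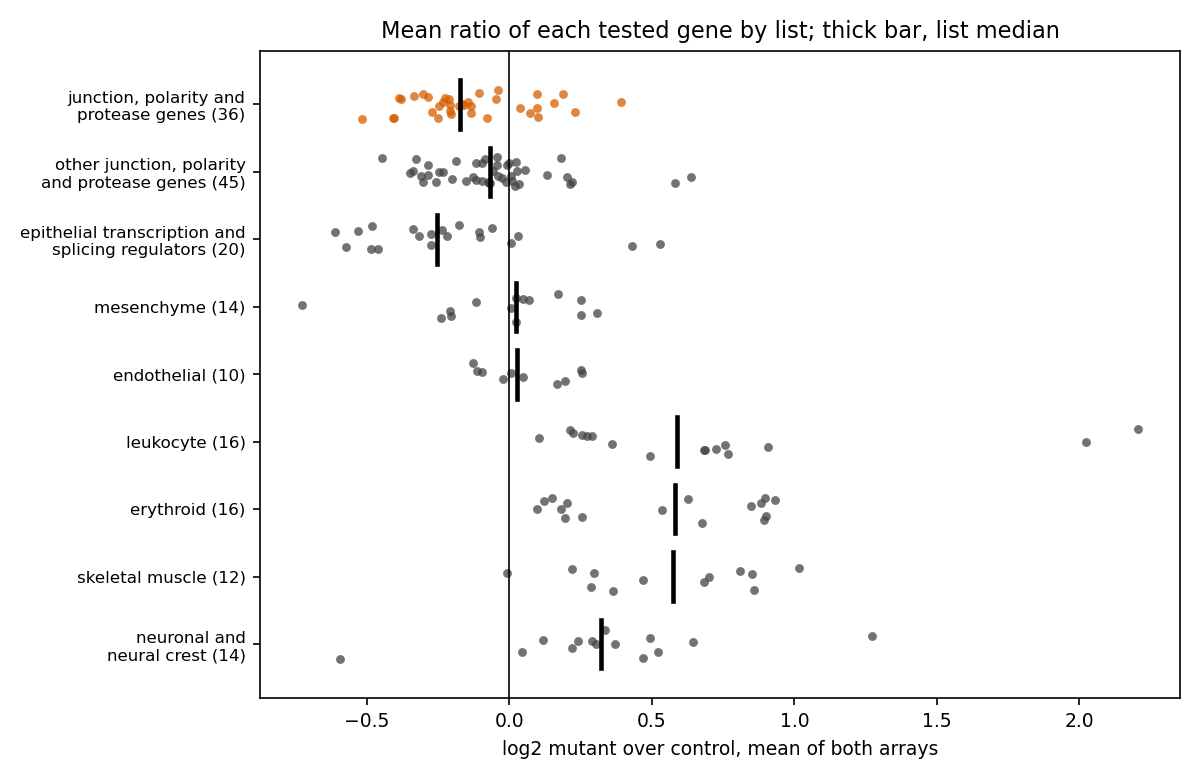
Mean log2 ratio of mutant over control (2 arrays) of every tested gene in the set and in 8 further lists, with the number tested in parentheses and the list median as a thick bar. The medians of the set (-0.17), of the other junction, polarity and protease genes (-0.067) and of the epithelial regulators (-0.25) lie below 0. Those of mesenchyme (0.023) and endothelium (0.027) lie near 0. Those of the leukocyte (0.59), erythroid (0.58), skeletal muscle (0.57) and neuronal (0.32) lists lie above 0.

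Markers of other cell types differed between the pools as well. Over all tested genes 21.4% were lower and 22.1% higher in the mutant on both arrays. Of 16 leukocyte genes 13 were higher in the mutant on both arrays, and their summed signal was 42100 and 75330 in the mutant against 34090 and 44530 in the control pools. Itgam alone made up 49.8% to 70.9% of these sums, with ratios of -0.030 and 0.75, and without it the sums were 21130 and 22170 against 12680 and 12960. S100a8 and S100a9 were the called ones, at adjusted p = 0.014 each in limma. Of 16 erythroid genes 13 were higher on both, with sums of 762800 and 707100 against 286600 and 547900. Of 12 tested skeletal muscle genes 11 were higher on both (sums of 32070 and 28840 against 27120 and 27000, or 12090 and 12170 against 8430 and 8978 without Actc1, the brightest), and of 14 neuronal and neural crest genes 11 were (14470 and 16780 against 10140 and 14510). All markers of these 4 lists except Myf5 were bright enough to test. Of 14 mesenchyme genes 4 were lower and 3 higher on both, with mutant sums at 96.2% and 107.8% of control, and of 10 endothelial genes 2 were lower and 5 higher. The summed signal of the 36 genes of the set was 87.6% of control on array 1 and 92.3% on array 2. Cdh16 alone made up 23.1% to 28% of these sums, and without it they were 91.99% and 87.7% of control. The part of these other cell types in the lower ratios of the set was not tested. In whole ureters, fewer epithelial cells and less RNA per cell cannot be told apart.

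The labels were checked on the same arrays. Markers of the ureter were measured, with the mesenchymal Tbx18 at -0.13 and -0.29 and Foxf1 at -0.64 and -0.82. The epithelial signal Shh had -0.63 and -0.45, and Gata3 had -0.30 and -0.62. Pax2 had opposite signs on the arrays, at -0.11 and 0.97. Of the uroplakin genes, Upk1b had 0.49 and 0.54 and Upk3a had 1.45 and 1.24, while Upk2 was too dim to test. The Fgfr2 probe gave ratios of 0.27 and 0.057 and so was not lower in the mutant, and the Fgfr1 probe gave 0.27 and -0.44; the positions of the floxed segments against the probes are not stated, and the probes check nothing about the deletions. Xist had an intensity of 12.42 in both female pools, and of 8.39 in the mutant and 9.996 in the control pool labelled male, which therefore differ from each other. Without array 2, 28 of the 36 genes were below 0 at a median of -0.15.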

How the data were processed

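Two-colour Agilent arrays compared mutant with control ureter RNA (150 ng input per pool, per the labels' protocols), with 4 spots for each of 39429 probes. Per the submitters' processing notes the software was Agilent Feature Extraction 10.7.3.1. The authors deposited spot and background signals as intensity values, not normalized per the file headers, and a table holding a score for each probe on each array. The score is a signed fold on a linear scale; how it was made and centred is not stated in the sources used. Compared with the scanner values, it ran as mutant over control on both arrays (correlations of 0.973 and 0.991). In both channels 67.9% to 77.0% of spots were well above background and 0 were saturated, and 3.35% and 3.05% of spots were left out as outliers.

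From the intensities, background was corrected with normexp (offset 50) in limma 3.58.1 (R 4.3.3), and ratios were normalised by loess with a span of 0.3 and control spots given weight 0. The ratio of array 2 was turned. A probe was tested where a share of over 0.5 of its spots was well above background in one group on both arrays, and a gene took its brightest tested probe. Genes were tested against 0 with lmFit and eBayes over 20923 genes with Benjamini-Hochberg adjustment at 0.05, on 1 residual and 6.32 prior degrees of freedom. The fit was also run on simulated ratios whose variances were drawn from the prior fitted to these data. That run checks the calculation only and bears on neither dye nor sex. Levels are after loess and Aquantile, and summed signals are on their linear scale. Gene names were updated through RefSeq for 28328 probes. The 2 arrays share a slide, which leaves no slide effect to test.

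The members, the lists and the tests were chosen with earlier results of these data known. All members are named, and of each other list at most the 4 genes with the largest mean ratio of one sign on both arrays, beside the tissue check genes. Zeb1, Zeb2, Snai1, Snai2, Grhl1, Grhl2, Itgam, Actc1 and the genes of the closing observations fall outside this rule and were named after their values were seen. The alternatives were processed signals, median centring, other dim-probe filters, the mean of a gene's probes, the deposited score table, an offset of 16 and each array alone. Protein sequences were not used here.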

Additional observations from a re-analysis of the deposited data

How the results depend on the processing

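Across the 7 alternative processings of both arrays, 21 to 25 of the set's genes were lower in the mutant on both arrays, 1 was higher on both and none passed the adjusted test, where the lowest adjusted p ranged from 0.56 with the processed signals to 1 without a filter on dim probes. The mean ratio of Pard6b, a dim probe, went from -0.27 to -0.95 with the processed signals, and that of Dsg2 from -0.25 to -0.47; the cause was not tested. The count at an unadjusted p under 0.05 in limma ranged from 3 with the mean of all tested probes to 7 with median centring. The share of all tested genes at that cut is given only for the main processing. These counts therefore have no background beside them. Median centring in place of loess moved the median of all tested genes to -0.084 and that of the set to -0.27, which is -0.19 relative to all genes, and gave 7 genes at an unadjusted p under 0.05. It also changed the split of all tested genes to 38.1% lower and 15.5% higher on both arrays, and turned the mean ratios of Cgn (-0.066) and Epcam (-0.037). The mean of all tested probes turned Ocln (-0.029) and the authors' deposited table turned Cgnl1 (-0.012); their causes were not tested. With each array alone, 28 genes were lower and 8 were higher on either array, and the median ranged from -0.23 to -0.15. The 14 genes with opposite signs turn with the array left out. The lower and the higher value were -0.26 and 0.10 for Cdh1, -0.41 and 0.090 for Cdh16, -0.027 and 0.17 for Cgn, -0.29 and 0.37 for Cgnl1, -0.12 and 0.44 for Evpl, -0.18 and 0.63 for Cldn1, -0.14 and 0.064 for Cldn23, -0.41 and 0.14 for Cldn7, -0.095 and 0.29 for Epcam, -0.15 and 0.34 for Marveld3, -0.44 and 0.64 for Ocln, -0.28 and 0.0063 for Pkp2, -0.042 and 0.82 for Pkp3, and -0.22 and 0.0084 for Tjp1. A single array has no test. The ratio on each array already pairs its 2 pools, and the limma test was made on these paired ratios. With 2 arrays, the number of arrays limits the precision, and dim probes such as those of Pard6b and Cldn23 lie near background.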

Other observations

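Among the junction genes outside the set, the cadherin of mesenchyme and nerve, Cdh2, had log2 ratios of 0.24 and 0.19, and Perp, a desmosome-associated gene, had 0.27 and 0.17. Cldn15 had the largest difference between the arrays among these claudins, with -0.13 on array 1 and 1.41 on array 2. The coxsackievirus receptor gene Cxadr, the protease-activated receptor gene F2rl1 (-0.26 and -0.35), Magi3 (-0.24 and -0.33), Myo5b (-0.17 and -0.45) and Hpn, which encodes hepsin (-0.11 and -0.39), were lower on both arrays. The catenin genes Ctnna1 (0.055 and -0.11), Ctnnb1 (0.11 and -0.072) and Ctnnd1 (-0.24 and 0.25), which other cell types share, had ratios of opposite sign. These genes were named after their values were seen, and none passed the adjusted test in limma.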
